A study of Mus musculus with 2 samples.

Results

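The endoplasmic reticulum (ER) folding, translocation and stress genes are 38 genes chosen by symbol and by what their proteins are known to do. All 38 were found among the 31053 genes of the count files. They were read as 4 classes, with 17 chaperones and folding enzymes, 9 translocon genes, 6 stress sensors and transcription factors, and 6 degradation genes. Gene expression was measured by single-nucleus RNA sequencing of entorhinal cortex from male APP/PS1 mice, a transgenic model of amyloid deposition whose transgenes are driven by a prion protein promoter. The OLE library came from mice given C18:1-Leu (N-oleoyl-leucine, OLE, an N-acyl amino acid) at 25 mg/kg/day in drinking water made alkaline, started at 15 and ended at 18 months, and the vehicle library from mice of the same genotype, sex and age whose alkaline water held DMSO. Each library was a pool of 5 mice, so there was 1 library per group, no test between the treatments was possible, and no wild-type library was analysed here. RNA molecules were counted by unique molecular identifiers (UMIs), and a level is the UMIs of a gene per 1000000 UMIs of all genes in the same nuclei (CPM). Differences are given as the log2 ratio of OLE to vehicle in CPM, with a 95% exact binomial (Clopper-Pearson) interval that covers counting error only and not the spread between mice or libraries.

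The vehicle library held 6745 nuclei with a median of 3989 UMIs, and the OLE library 6173 nuclei with a median of 6392 UMIs. The 2 libraries shared 14 barcodes. After removal of likely doublets, 6373 vehicle and 5862 OLE nuclei fell into 24 clusters. Named from marker genes, 19 clusters gave 8 types. The 6 largest (vehicle and OLE) held 1819 and 1795 glutamatergic-like, 334 and 350 GABAergic-like, 590 and 529 oligodendrocyte-like, 101 and 84 oligodendrocyte precursor (OPC)-like, 336 and 269 microglia-like, and 119 and 136 astrocyte-like nuclei, and the others 84 and 82 leptomeningeal-like and 11 and 16 mural-like nuclei. The glutamatergic-like nuclei held the glutamate transporter Slc17a7 at 162 and 217 CPM, and the GABA-synthesising enzyme Gad1 at 4.41 and 6.41. The GABAergic-like nuclei held Gad1 at 273 and 311. The largest cluster (cluster 0, 2461 and 2009 nuclei) carried markers of several types and was left unnamed, as was cluster 2 (373 and 466 nuclei), in which 8.82% and 7.52% of UMIs were mitochondrial. Another 3 clusters (145 and 126 nuclei) had glutamatergic markers, did not meet the naming rule and are not part of the glutamatergic-like sums.

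Proteins that are secreted or sit in membranes enter the ER through a channel, the Sec61 translocon, and lose their signal peptide to the signal peptidase. Inside, chaperones of the Hsp70 and Hsp90 families, the lectins calnexin and calreticulin, protein disulfide isomerases and prolyl isomerases fold them, and proteins that fail are sent back to the cytosol for degradation. When unfolded protein accumulates, 3 sensors in the ER membrane, encoded by Ern1, Eif2ak3 and Atf6, start the unfolded protein response, whose transcription factors (the spliced product of Xbp1, Atf4, Ddit3 and the cleaved product of Atf6) act on genes of all the other classes. Neurons make large amounts of membrane and secreted protein and depend on this machinery.

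In glutamatergic-like nuclei the chaperones and folding enzymes stood higher in OLE, and the stress sensors and transcription factors were close to level. All 38 members had at least 100 UMIs over both libraries, the minimum for a gene to be read. The median log2 ratio was 0.52 for the 17 chaperones and folding enzymes, 0.36 for the 9 translocon genes, 0.25 for the 6 degradation genes and 0.02 for the 6 sensors and transcription factors, beside 0.07 for all 13985 genes read. A gene was called higher (or lower) where its log2 ratio reached 0.5 (or -0.5) and the counting interval left out 0. By that rule 13 of the 38 members were higher (34.2%), against 5.88% of all genes, and none was lower, against 0.386% of all genes. The 13 were 9 chaperones and folding enzymes, 2 translocon genes, 1 transcription factor and 1 degradation gene. The summed chaperones stood at 497 CPM in vehicle and 719 in OLE, a log2 ratio of 0.53 (0.51 to 0.56). The summed sensors and transcription factors stood at 242 and 243 CPM, a log2 ratio of 0.00 (-0.04 to 0.05). Atf6 alone held most of the 10210 vehicle and 9466 OLE UMIs of this second sum, which therefore mainly follows that gene.

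**Figure D1:**
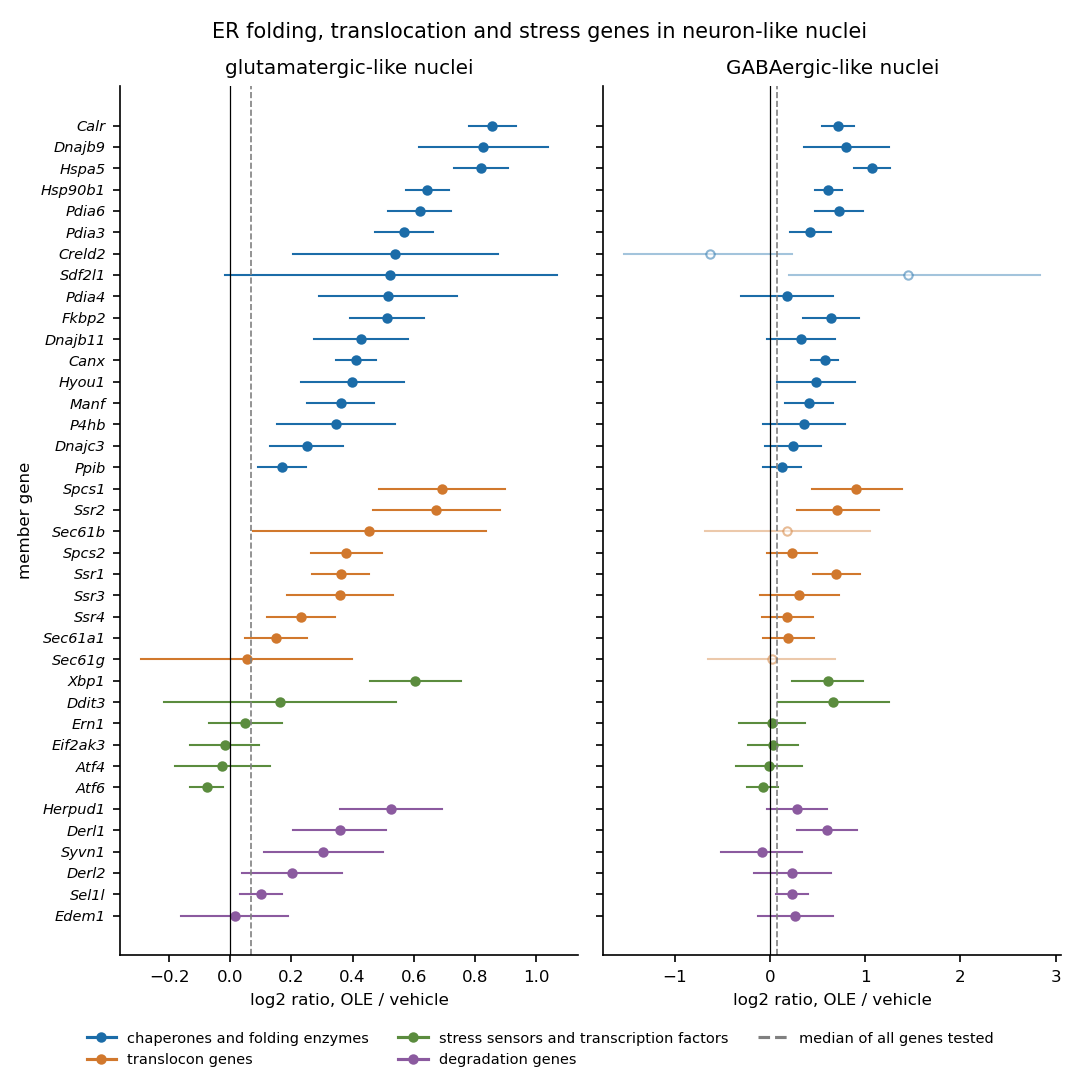
Log2 ratio of OLE to vehicle for each of the 38 members in glutamatergic-like (left) and GABAergic-like (right) nuclei, with 95% counting intervals; colours give the class, open points had under 100 UMIs, the dashed line is the median of all genes, and the 2 horizontal scales differ. The chaperones and folding enzymes lie to the right of 0 on the left panel, while Ern1, Eif2ak3, Atf4 and Atf6 lie near 0 on both.

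Among the chaperones, Calr (calreticulin, a calcium-binding lectin of the ER lumen; chromosome 8, 84841850 to 84846934 on GRCm38) had 2115 UMIs in vehicle and 3542 in OLE glutamatergic-like nuclei. This was the highest log2 ratio of the class, at 0.86 (0.78 to 0.94). Hspa5 (BiP, the Hsp70 of the ER; chromosome 2, 34771970 to 34777547) had 1652 and 2696 UMIs, a log2 ratio of 0.82 (0.73 to 0.91). Dnajb9, one of the J-domain cochaperones that work with BiP, was counted at 297 and 487 UMIs, which gives 0.83 (0.62 to 1.04). These 3 genes had the highest log2 ratios of the class, whose other 14 members lay between 0.17 and 0.64. The interval of Dnajb9 overlapped those of other members, among them Hsp90b1. Hsp90b1 (GRP94, the Hsp90 of the ER; chromosome 10, 86690209 to 86705509) had 2772 and 4004 UMIs, a log2 ratio of 0.64 (0.57 to 0.71). Canx (calnexin, the membrane-bound lectin chaperone; chromosome 11, 50293961 to 50325673) had 3331 and 4092 UMIs, and its log2 ratio of 0.41 (0.34 to 0.48) did not reach the size rule.

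Of the protein disulfide isomerases, which form and rearrange disulfide bonds, Pdia6, Pdia3 and Pdia4 were called higher and P4hb was not. Log2 ratios were 0.62 (0.52 to 0.72) for Pdia6, 0.57 (0.47 to 0.66) for Pdia3, 0.52 (0.29 to 0.74) for Pdia4 and 0.34 (0.15 to 0.54) for P4hb. The interval of P4hb overlapped those of the other 3, and a difference between these genes was not tested. The prolyl isomerases differed from each other, since Fkbp2 had a log2 ratio of 0.51 (0.39 to 0.63) and Ppib, with 2556 and 2657 UMIs, the lowest of the class at 0.17 (0.09 to 0.25). The cochaperones Dnajb11 and Dnajc3 had 0.43 (0.28 to 0.58) and 0.25 (0.13 to 0.37), the Hsp110-like Hyou1 0.40 (0.23 to 0.57), and the secreted ER stress proteins Creld2 and Manf 0.54 (0.21 to 0.88) and 0.36 (0.25 to 0.47). Sdf2l1, with 52 and 69 UMIs, was the 1 chaperone whose interval held 0, at 0.52 (-0.02 to 1.07). The 16 other intervals lay above 0. Of all genes read in these nuclei 66.8% had a log2 ratio above 0, and the share with an interval above 0 was not counted.

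Some genes of the unfolded protein response carry the ER stress element in their promoters, the letters CCAAT and CCACG set 9 bases apart. Atf6 and Xbp1 proteins are known to bind it together with NF-Y. The element was searched on both strands of RefSeq promoters (GRCm38.p6, 250 bases before to 50 bases after each start), of which 32 of the 38 members had one. It was present in 8 of the 32 (25.0%), against 37 of 27025 genes (0.137%). Of these 8, 7 were among the 15 chaperones and folding enzymes with a promoter and 1, Syvn1, among the 5 degradation genes, and it was in none of the 7 translocon genes and 5 sensors and transcription factors. The sequences are shown because the element was not used to choose the members, although several of them are known for it. Each is written 5′ to 3′ on the strand that reads CCAAT first, with the searched letters in capitals.
Hspa5 (chr2:34772025-34772043, plus strand): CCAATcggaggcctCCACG
Calr (chr8:84847075-84847093, plus strand): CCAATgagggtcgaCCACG
Hsp90b1, upstream element (chr10:86705638-86705656, minus strand): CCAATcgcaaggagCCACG
Hsp90b1, downstream element (chr10:86705533-86705551, plus strand): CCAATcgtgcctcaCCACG
Canx (chr11:50325800-50325818, minus strand): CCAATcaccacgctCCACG
Pdia6 (chr12:17266491-17266509, plus strand): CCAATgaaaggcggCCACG
Dnajc3 (chr14:118937827-118937845, plus strand): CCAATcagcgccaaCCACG
Creld2 (chr15:88819520-88819538, minus strand): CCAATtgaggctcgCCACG
Syvn1 (chr19:6046532-6046550, plus strand): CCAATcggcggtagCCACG

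Distances are to the RefSeq start, and for Hspa5 the GENCODE gene printed above begins 120 bases before that start, so that its element lies inside the GENCODE gene. The element of Hspa5 ended 47 bases before the RefSeq start and that of Syvn1 26 bases before it, while that of Calr lay 144 bases before it on the opposite strand and Hsp90b1 held a pair, 1 on each strand. To show the surroundings, the 250 bases before the start of Hspa5 and Calr, the chaperones with the highest log2 ratios in the GABAergic-like and glutamatergic-like nuclei, follow on the strand of the gene, so that the element of Calr reads as its reverse complement.
Hspa5 (chr2:34771840-34772089, plus strand): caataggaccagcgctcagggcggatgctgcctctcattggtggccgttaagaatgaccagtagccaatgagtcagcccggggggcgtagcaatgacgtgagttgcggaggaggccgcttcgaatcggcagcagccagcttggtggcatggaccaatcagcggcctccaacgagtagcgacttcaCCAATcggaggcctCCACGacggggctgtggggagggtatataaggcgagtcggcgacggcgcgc
Calr (chr8:84846932-84847181, minus strand): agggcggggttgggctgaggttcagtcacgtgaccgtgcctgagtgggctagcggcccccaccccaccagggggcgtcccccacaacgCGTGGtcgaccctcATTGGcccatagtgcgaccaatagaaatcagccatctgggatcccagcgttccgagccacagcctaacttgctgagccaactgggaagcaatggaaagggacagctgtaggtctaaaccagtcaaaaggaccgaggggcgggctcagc

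In glutamatergic-like nuclei the 8 members with the element had a median log2 ratio of 0.58 (range 0.25 to 0.86, 5 called higher) and the 24 members with a promoter and no element 0.36 (range -0.03 to 0.83, 7 called higher). Within the chaperones the medians were 0.62 for 7 with and 0.51 for 8 without the element. Of 29 other genes with the element 9 were read, with a median of -0.03 (range -0.47 to 0.26), and none was called higher. Of all genes 5.88% were called higher, and none of 9 is near that share. In GABAergic-like nuclei the chaperone medians were 0.66 for 6 with and 0.36 for 7 without the element. There 6 other genes with the element had a median of 0.11, none called higher, beside 6.98% of all genes. A difference between these sets was not tested. The letters TGACGT, the core of a site that Atf6 and cAMP-responsive factors bind, were in 4 of 32 members (12.5%; Canx, Hspa5, Dnajb11 and Fkbp2) and in 8.37% of all genes. These matches are a description of the letters in a window and not of binding.

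The translocon genes, which code for the channel and its partners, were less even. Spcs1, a subunit of the signal peptidase (chromosome 14, 30999826 to 31001672), had 329 UMIs in vehicle and 491 in OLE glutamatergic-like nuclei, the highest log2 ratio of the class at 0.69 (0.49 to 0.90). Its partner Spcs2 was at 0.38 (0.26 to 0.50) on 1095 and 1316 UMIs. The 4 subunits of the translocon-associated protein complex had 0.67 (0.47 to 0.88) for Ssr2, 0.36 (0.27 to 0.45) for Ssr1 with 1722 and 2044 UMIs, 0.36 (0.18 to 0.53) for Ssr3, and 0.23 (0.12 to 0.34) for Ssr4 with 1281 and 1390 UMIs. Of the channel itself, Sec61a1, which forms the pore, was at 0.15 (0.05 to 0.25) on 1519 and 1557 UMIs. The small subunits Sec61b and Sec61g had 0.45 (0.07 to 0.84) on 105 and 133 UMIs and 0.05 (-0.29 to 0.40) on 146 and 140 UMIs. Only Spcs1 and Ssr2 met the size rule in these nuclei.

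Of the sensors and transcription factors, Xbp1 (chromosome 11, 5520659 to 5525893) was the 1 gene called higher, with 640 UMIs in vehicle and 900 in OLE and a log2 ratio of 0.61 (0.46 to 0.75). UMIs counted per gene do not tell its spliced from its unspliced form. The sensors did not follow it. Atf6, a long gene of 163 kb, had 6196 and 5425 UMIs, the lowest log2 ratio of all members at -0.08 (-0.13 to -0.03). Eif2ak3 (PERK) had 1352 and 1233 UMIs, a log2 ratio of -0.02 (-0.13 to 0.09), and Ern1 (IRE1 alpha) 1191 and 1139 UMIs, 0.05 (-0.07 to 0.17). Atf4, the factor made when PERK acts, was at -0.03 (-0.18 to 0.13) on 715 and 649 UMIs, and its target Ddit3 (CHOP) 116 and 120 UMIs, 0.16 (-0.22 to 0.54). Counts of Ddit3 are uncertain because the annotation holds a further gene of that name on the same strand at the same place, and those of the chaperone Manf because Rbm15b overlaps it on the same strand.

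Among the degradation genes, Herpud1 (chromosome 8, 94386438 to 94395377), a membrane protein of the retrotranslocation complex, was the 1 called higher, at 0.52 (0.36 to 0.69) on 513 and 682 UMIs. The channel proteins Derl1 and Derl2 had 657 and 778 UMIs, a log2 ratio of 0.36 (0.21 to 0.51), and 604 and 642 UMIs, 0.20 (0.04 to 0.36). The ubiquitin ligase Syvn1 had 0.30 (0.11 to 0.50), and its partner Sel1l 0.10 (0.03 to 0.17) on 3535 and 3503 UMIs. Edem1, which picks out misfolded glycoproteins, was the lowest of the class at 0.01 (-0.16 to 0.19). The degradation genes thus ranged from 0.01 to 0.52, and 5 of the 6 intervals lay above 0, where 66.8% of all genes had a ratio above 0.

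In GABAergic-like nuclei the same order of classes was seen. With 34 members read, medians were 0.48 for 15 chaperones and folding enzymes, 0.31 for 7 translocon genes, 0.25 for 6 degradation genes and 0.03 for 6 sensors and transcription factors, beside 0.08 for all 9651 genes. Creld2, Sdf2l1, Sec61b and Sec61g had under 100 UMIs. Here too 13 members were called higher (38.2% of those read), against 6.98% of all genes, and none lower, against 0.446%. Hspa5 had 341 UMIs in vehicle and 658 in OLE, the highest log2 ratio of any member in these nuclei at 1.07 (0.88 to 1.26). Calr had 501 and 754 UMIs (0.71, 0.55 to 0.88), Hsp90b1 674 and 947 (0.61, 0.47 to 0.76) and Canx 718 and 983 (0.58, 0.44 to 0.72), while Ppib, with 428 and 429 UMIs, was again the lowest of its class at 0.13 (-0.07 to 0.32). In the other classes the highest and lowest were Spcs1 (61 and 105 UMIs, 0.91, 0.44 to 1.39) and Ssr4 (234 and 244, 0.18, -0.08 to 0.45), Ddit3 (44 and 64, 0.66, 0.09 to 1.25) and Atf6 (664 and 578, -0.08, -0.24 to 0.09), and Derl1 (145 and 201, 0.59, 0.28 to 0.91) and Syvn1 (104 and 90, -0.09, -0.51 to 0.34).

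Calr, Dnajb9, Fkbp2, Hsp90b1, Hspa5, Pdia6, Spcs1, Ssr2 and Xbp1 were called higher in both neuron types. Both came from the same 2 libraries, so these calls are not a repeat of the measurement. Pdia3, called in the glutamatergic-like nuclei at 0.57 (0.47 to 0.66), stood at 0.43 (0.21 to 0.64) in the GABAergic-like nuclei, and Canx, called in the GABAergic-like nuclei at 0.58 (0.44 to 0.72), at 0.41 (0.34 to 0.48) in the glutamatergic-like nuclei. A difference between the types was not tested.

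Neuron clusters were also read 1 by 1. In all 10 glutamatergic-like clusters the median of the chaperones lay above that of the sensors and transcription factors, at 0.34 to 0.83 against -0.23 to 0.27, and in both GABAergic-like clusters at 0.47 to 0.59 against -0.14 to 0.07. Medians of all genes in these clusters were between 0.02 and 0.08. In clusters 19 and 21 the median of the sensors and transcription factors was Atf6 alone, beside 3 and 4 chaperones. Xbp1 could be read in 5 of the 10 glutamatergic-like clusters and Ddit3 in none. Translocon medians ranged from 0.01 to 0.46 over the 8 glutamatergic-like clusters in which any of them could be read, and degradation medians from -0.06 to 0.37. Hsp90b1 had at least 100 UMIs in 10 glutamatergic-like clusters and its interval lay above 0 in 10 of them (0.43 to 1.01), Calr in 9 of 9 (0.68 to 1.13), and Hspa5 and Pdia6 each in 8 of 8 (0.67 to 1.26 and 0.39 to 0.77). Atf6 could also be read in 10 clusters, with an interval above 0 in none, below 0 in 2, and a range of -0.31 to 0.21. The chaperone difference was thus seen in each cluster, on 3 to 15 chaperones. All clusters are parts of the same 2 libraries, so this is not a repeat of the measurement. Neither lists of other genes nor the share of all genes with an interval above 0 were read by cluster. At a finer resolution 38 OLE nuclei formed a cluster with no vehicle nuclei, and without them the median of the chaperones was 0.52.

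**Figure D2:**
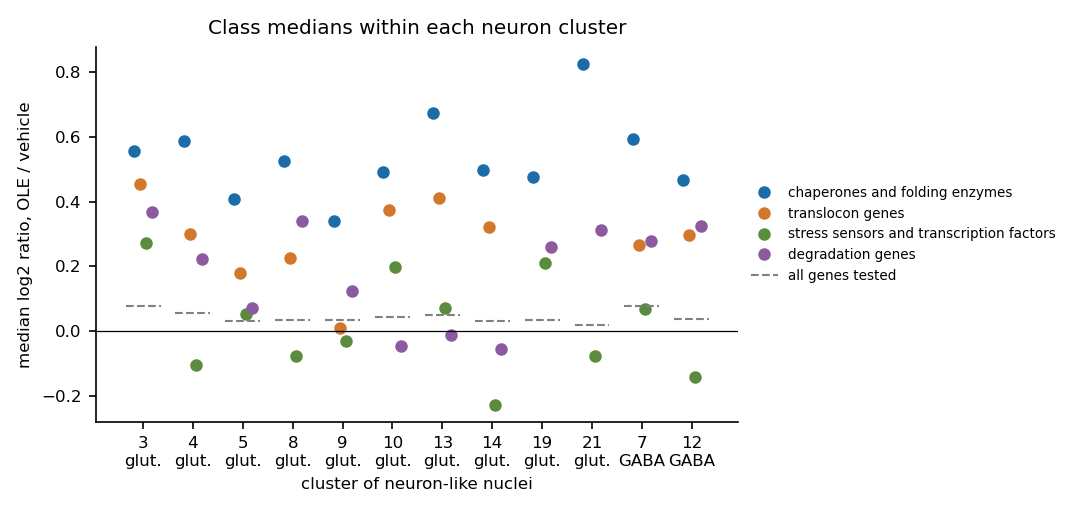
Median log2 ratio of OLE to vehicle of each class (points, members with at least 100 UMIs in the cluster) in the 10 glutamatergic-like and 2 GABAergic-like clusters, with the median of all genes as a dashed line. The chaperone point lies between 0.34 and 0.83 in every cluster and above the sensor point in all 12. In clusters 19 and 21 the sensor point is 1 gene, Atf6.

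Gene length moved with the same comparison. Over all genes in glutamatergic-like nuclei the median log2 ratio stepped down from 0.27 for genes under 5 kb (20.5% called higher) through 0.17, 0.11, 0.06 and 0.02 to -0.01 for genes over 100 kb (3.59% called higher), the classes being split at 5, 10, 20, 50 and 100 kb. Most chaperones are short, with a median length of 13.0 kb, as are the translocon genes (12.5 kb), while the sensors and transcription factors have a median of 33.1 kb and include Ern1 at 93.2 kb and Atf6 at 163 kb. Set beside all genes of their own length class, 16 of 17 chaperones lay above the class median, by a median of 0.37, with Ppib at its level (0.17). Of the translocon genes 7 of 9 lay above it (median difference 0.28), of the degradation genes 5 of 6 (0.11), and of the sensors and transcription factors 2 of 6 (-0.02). Atf4, at 2.36 kb a short gene, lay 0.29 below the median of its length class, and Xbp1, at 5.24 kb, 0.43 above. In GABAergic-like nuclei 14 of 15 chaperones and 3 of 6 sensors and transcription factors lay above their length class, with median differences of 0.34 and 0.00. What part of the members' ratios goes with length was not tested.

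**Figure D3:**
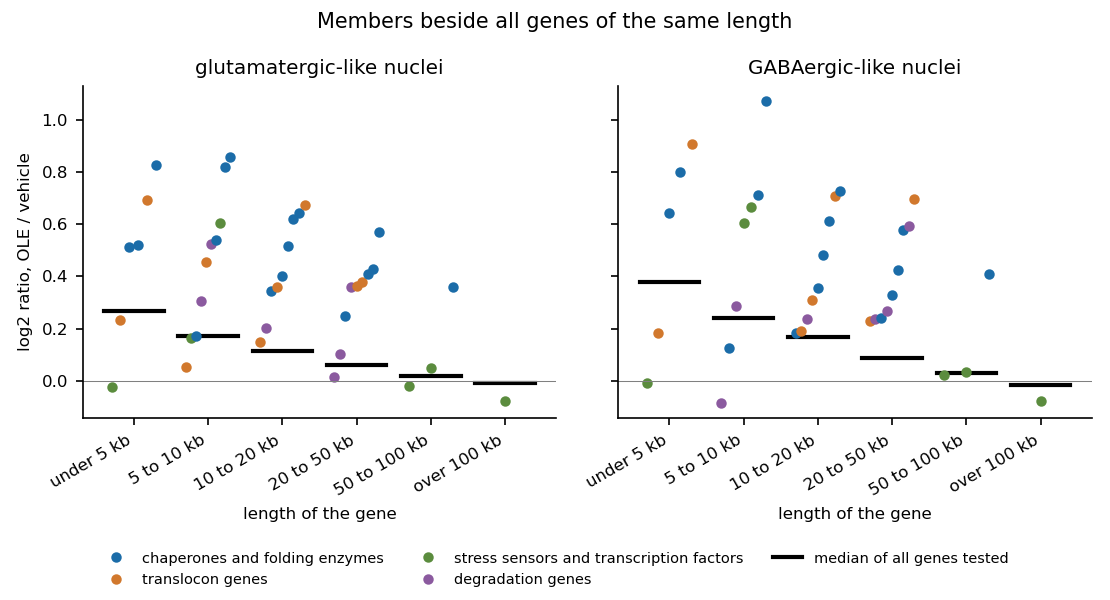
Log2 ratio of OLE to vehicle of each member (points, coloured by class) by the length of its gene, with the median of all genes of that length class as a black bar, in glutamatergic-like (left) and GABAergic-like (right) nuclei. The bars step down from 0.27 to -0.01 on the left, and most chaperone points lie above the bar of their class.

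Other lists were read in the same way. Of 80 further genes of the secretory pathway 75 had enough UMIs in glutamatergic-like nuclei, with a median log2 ratio of 0.21 and 12 called higher and none lower. Among those with at least 200 UMIs the highest were Selenok (a selenoprotein of ER-associated degradation, 1063 and 1690 UMIs, 0.78, 0.67 to 0.89), Ost4 (a small subunit of the oligosaccharyltransferase, 87 and 137, 0.77, 0.37 to 1.17) and Wfs1 (an ER membrane protein, 623 and 969, 0.75, 0.60 to 0.90). The lowest were the BiP nucleotide exchange factor Sil1 (3466 and 3018, -0.09, -0.16 to -0.02), the J-domain protein Dnajc1 (11370 and 10026, -0.07, -0.11 to -0.03) and the disulfide isomerase Pdia5 (385 and 346, -0.04, -0.25 to 0.17), all long genes of 93.6 to 233 kb. Genes translated at the ER with no role in folding had a median of 0.42 (28 read, 11 higher), and genes translated in the cytosol 0.37 (28 read, 11 higher), both near that of the translocon genes and under that of the chaperones. These 11 of 28 stand beside 13 of 38 members and 5.88% of all genes. Calls as frequent as those among the members were therefore not particular to the members. Intervals lay above 0 for 26 of 28 ER-translated and 23 of 28 cytosol-translated genes, beside 30 of 38 members. RNAs kept in the nucleus had a median of 0.06 (6 read, none higher). In GABAergic-like nuclei these 4 medians were 0.23, 0.47, 0.50 and 0.03, so that the cytosol-translated genes stood level with the chaperones there. Of the ER-translated and of the cytosol-translated genes 13 of 27 each were called higher there, beside 13 of 34 members and 6.98% of all genes.

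In glutamatergic-like nuclei the summed markers of GABAergic neurons had a log2 ratio of 0.56 (0.52 to 0.59), at 215 and 315 CPM, and those of vascular leptomeningeal cells 0.42 (0.28 to 0.55), at 18.9 and 25.3. Markers of the other types were at -0.03 (oligodendrocyte), -0.02 (endothelial), 0.03 (mural), 0.04 (astrocyte), 0.14 (microglia) and 0.20 (OPC), and those of glutamatergic neurons at 0.10. No marker was at 0 in both libraries. In GABAergic-like nuclei the summed markers of OPCs were at 0.47 (0.22 to 0.72), those of microglia at 0.26 (0.09 to 0.44) and those of glutamatergic neurons at 0.09 (0.02 to 0.15). The mitochondrial share was 0.331% and 0.320% in glutamatergic-like nuclei, and 0.483% and 0.457% in GABAergic-like nuclei. Their part in the members' ratios was not tested.

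The other cell types held fewer UMIs, and their counts were read with wider intervals. In oligodendrocyte-like nuclei 27 members were read, with medians of 0.33 for 12 chaperones, 0.48 for 5 translocon genes, 0.13 for 5 sensors and transcription factors and -0.12 for 5 degradation genes, beside 0.02 for all genes. Called higher were 4 (4.21% of all genes) and lower none (1.29%). These were Ssr3 with 53 and 74 UMIs (0.77, 0.25 to 1.31), Pdia6 with 69 and 91 (0.69, 0.22 to 1.16), Pdia3 with 126 and 157 (0.61, 0.26 to 0.96) and Ssr4 with 61 and 74 (0.57, 0.06 to 1.08). Without reaching the size rule, intervals lay above 0 for Ssr1 (0.48, 0.11 to 0.85), Spcs2 (0.43, 0.03 to 0.83), Hspa5 (0.42, 0.09 to 0.74) and Calr (0.30, 0.02 to 0.58), and just below 0 for Sel1l (-0.28, -0.57 to -0.00092).

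In OPC-like nuclei 9 members were read and 6 called higher, all chaperones or folding enzymes (4.33% of all genes higher, 2.86% lower). Calr had 70 UMIs in vehicle and 137 in OLE (1.24, 0.81 to 1.67), Ppib 47 and 89 (1.19, 0.66 to 1.73), Pdia6 39 and 71 (1.13, 0.55 to 1.74), Hspa5 59 and 79 (0.69, 0.19 to 1.20), Pdia3 50 and 64 (0.63, 0.07 to 1.19) and Hsp90b1 90 and 108 (0.53, 0.11 to 0.95). Atf6 was at -0.10 (-0.59 to 0.38). The minimum for a gene to be read was set on both libraries summed, and Ppib, Pdia6 and Pdia3 passed it through their OLE counts. The count of 6 of 9 and the order of these members can therefore favour members high in OLE. The median of the 9 members was 0.63, and with a minimum of 20 UMIs that of 31 members was 0.53. With no doublets left out the median was 0.31 on 11 members, and 4 in place of 6 chaperones were called higher. Ppib, the lowest chaperone in both neuron types, was thus among the highest here, on 136 UMIs.

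In microglia-like nuclei, from the immune cells of the brain, 14 members were read. Of these 1 was called higher, Ppib with 52 and 69 UMIs (0.68, 0.14 to 1.23), against 3.1% of all genes, and none lower, against 1.99%. Intervals also lay above 0 for Pdia3 (0.49, 0.12 to 0.87), Hspa5 (0.49, 0.09 to 0.89) and Calr (0.42, 0.11 to 0.74). In astrocyte-like nuclei 8 members were read and 2 called higher, Calr with 55 and 98 UMIs (0.63, 0.14 to 1.13) and Hspa5 with 52 and 91 (0.60, 0.10 to 1.12), against 3.9% of all genes higher and 3.32% lower. With every nucleus weighing the same, no chaperone was called higher in the astrocyte-like nuclei (median 0.10 in place of 0.24) or in the microglia-like nuclei. Over the 6 largest types, Calr and Hspa5 were the 2 of 7 members read in each type whose interval lay above 0 in all 6. The share of all genes with such intervals was not counted. Slc17a7, a gene of glutamatergic neurons, was read at 107 and 115 CPM in microglia-like and at 81.6 and 75.4 in oligodendrocyte-like nuclei, and the part of neuronal RNA in the glial values was not tested. Summed markers of other types also moved, in oligodendrocyte-like nuclei those of OPCs (0.55, 0.31 to 0.79) and endothelial cells (1.02, 0.42 to 1.64), in OPC-like nuclei those of GABAergic neurons (-0.14, -0.19 to -0.08) and endothelial cells (1.35, 0.13 to 2.67), and in astrocyte-like nuclei those of oligodendrocytes (-0.50, -0.74 to -0.26) and leptomeningeal cells (77.8 CPM in vehicle and 38.9 in OLE). Their part in the members' ratios was not tested.

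The leptomeningeal-like nuclei, from the membranes that cover the brain, held 14 members with enough UMIs, and their values were looked at after the other types. The median log2 ratio was 1.08 for 9 chaperones and folding enzymes and 0.46 for 3 translocon genes, beside -0.04 for all genes. Ppib had 30 UMIs in vehicle and 101 in OLE (1.65, 1.05 to 2.29), Manf 33 and 104 (1.56, 0.98 to 2.17), Hspa5 121 and 319 (1.30, 0.99 to 1.61), Pdia3 68 and 170 (1.22, 0.81 to 1.65) and Calr 120 and 272 (1.08, 0.77 to 1.40). These were the highest of the 14, and Ssr1 (1.03, 0.49 to 1.60) and Hsp90b1 (0.96, 0.67 to 1.26) came next. The minimum of 100 UMIs was set on both libraries summed, and Ppib and Manf passed it through their OLE counts. The class median and this ranking can therefore favour members high in OLE. Atf6, with 60 and 53 UMIs, was at -0.28 (-0.84 to 0.28), and Sec61a1, with 65 and 57 UMIs, at -0.29 (-0.83 to 0.25). In the same nuclei the summed markers of GABAergic neurons were at 383 and 1059 CPM (1.47, 1.26 to 1.68), those of mural cells at 0.69 (0.39 to 1.00), those of OPCs at 0.68 (0.25 to 1.11), those of endothelial cells at 0.31 (0.10 to 0.52), and those of leptomeningeal cells themselves at -0.12 (-0.20 to -0.03). Over both libraries the mitochondrial share was 9.52% in cluster 17 (42 and 43 of these nuclei) and 2.43% in cluster 18 (42 and 39). The part of these markers and of the mitochondrial share in the members' ratios was not tested. The mural-like nuclei held no member with 100 UMIs.

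**Figure D4:**
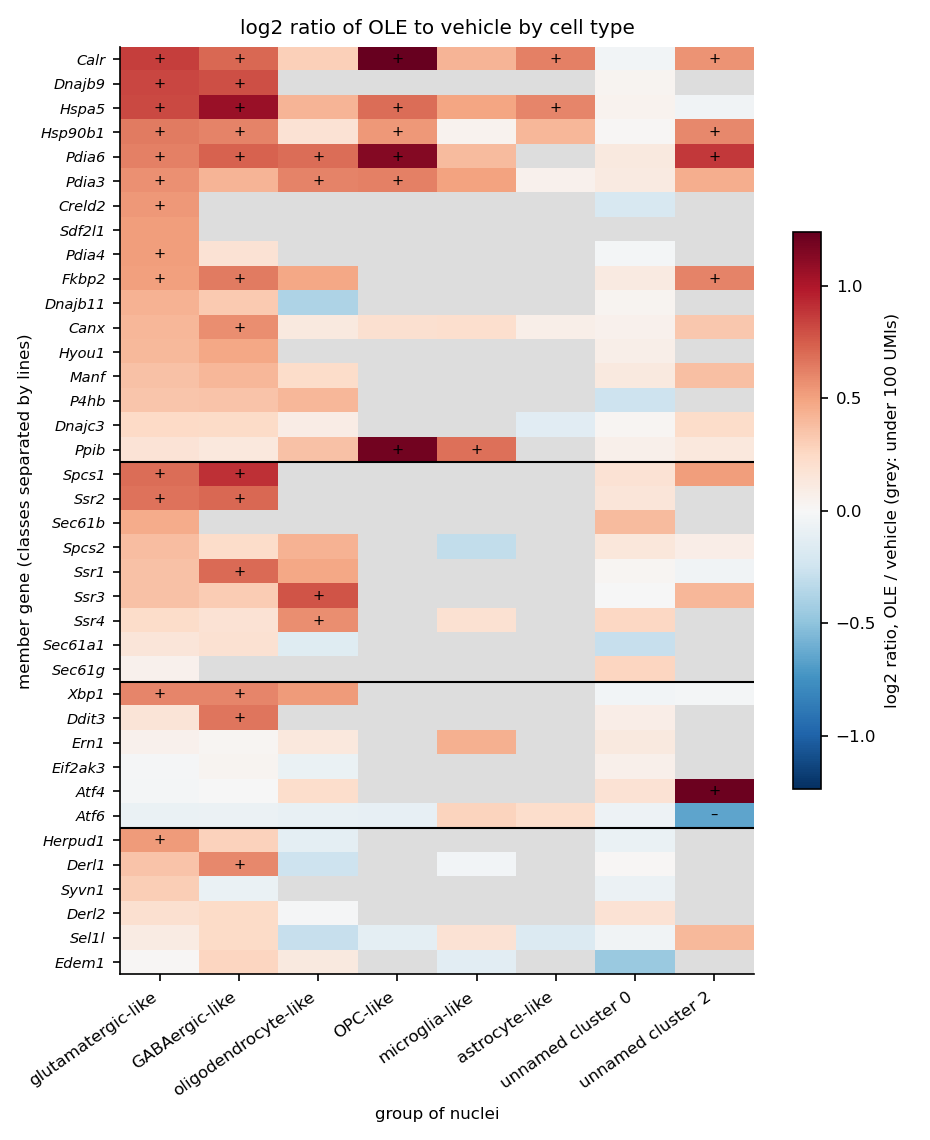
Log2 ratio of OLE to vehicle of each member (rows) in each group of nuclei (columns); red is higher and blue lower in OLE, grey had under 100 UMIs, and + or – marks a gene called higher or lower. Of 130 pairs of member and one of the 6 largest cell types with enough UMIs 39 carry a + and none a –. Of all genes, 3.1% to 6.98% were called higher and 0.386% to 3.32% lower, depending on the type. The pairs come from the same 2 libraries and are not separate measurements. The column of unnamed cluster 0 carries neither mark.

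Of the 5 unnamed clusters, the 2 largest differed from each other. In cluster 0, where 37 members were read on 15479 and 23775 UMIs in all, the median log2 ratio was 0.04 for the chaperones, 0.15 for the translocon genes, 0.07 for the sensors and transcription factors and -0.06 for the degradation genes, beside 0.02 for all genes. No member was called higher or lower there, against 2.08% and 0.879% of all genes. Hspa5 had 799 and 1236 UMIs (0.04, -0.09 to 0.17) and Calr 1046 and 1533 (-0.04, -0.15 to 0.08), so their intervals lay wholly below those of the same genes in the glutamatergic-like nuclei. The nuclei of cluster 0 had a median of 2364 UMIs in vehicle and 4757 in OLE. In cluster 2, of 18 members read, 5 were called higher and 1 lower, against 10.4% and 4.09% of all genes. In the 3 small unnamed clusters with glutamatergic markers, summed, the median was 0.61 for 11 chaperones and 0.26 for 5 sensors and transcription factors, beside 0.04 for all genes. Calr was at 0.92 (0.67 to 1.19) and Hspa5 at 0.86 (0.57 to 1.15) there, Xbp1 at 0.71 (0.21 to 1.21) and Atf6 at -0.24 (-0.48 to -0.0034).

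Levels of the members also differed between cell types, within each library. In CPM, summed chaperones in vehicle stood at 497 (glutamatergic-like), 613 (GABAergic-like), 752 (astrocyte-like), 814 (OPC-like), 815 (oligodendrocyte-like), 1392 (microglia-like) and 1343 (cluster 0). In OLE the same sums were 719, 907, 972, 1293, 987, 1683 and 1381. The microglia-like nuclei were highest of the 6 largest types in both libraries also for the sensors and transcription factors (402 and 440 against 177 to 252 and 198 to 260 in the others) and for the degradation genes (430 and 457 against 149 to 273 and 169 to 249). Of the 38 members 27 had the same highest type in both libraries, and for 23 of them it was the microglia-like nuclei. Edem1 was 10.9-fold (vehicle) and 9.86-fold (OLE) higher in microglia-like than in glutamatergic-like nuclei, and Calr 3.75-fold and 2.77-fold. Microglia-like nuclei had a median of 2435 UMIs in vehicle and glutamatergic-like nuclei 20932, and the part of this difference in depth, or of RNA from other cells, in the levels was not tested.

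**Figure D5:**
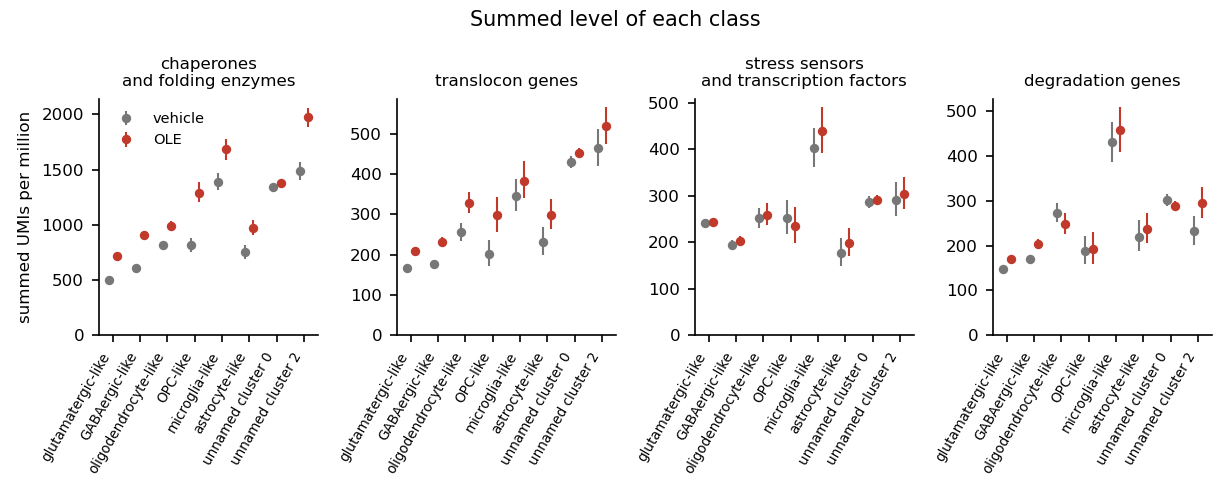
Summed CPM of each class (panels) in each group of nuclei, in vehicle (grey) and OLE (red), with 95% Poisson counting intervals. The chaperones stand higher in OLE in all 6 cell types shown and at 1343 and 1381 in unnamed cluster 0. The sensors and transcription factors overlap between the libraries in each group, and in glutamatergic-like nuclei Atf6 holds most of their UMIs.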

How the data were processed

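Nuclei from frozen entorhinal cortex (5 mice pooled per library) were sequenced with 10x Chromium 3′ v3 chemistry. Per the submitters' processing notes and the study's methods, the authors aligned reads with Cell Ranger 3.0.1 (the file header names 3.0.2) to an mm10 pre-mRNA reference, so that reads in introns were counted too. The deposited values are raw UMI counts per gene and nucleus, and no correction for RNA from other cells was made here. The study states that doublets were removed with Seurat 4.0.4, but not whether before deposit. The 12918 deposited barcodes equal the nuclei it counts.

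Scrublet (scanpy 1.11.5, Python 3.11.15) called 0.113% (OLE) and 0.119% (vehicle) of nuclei. A caller that marks under 0.5% was taken as not having worked, although doublets may have been removed before deposit, so the 5% of nuclei with the highest scores were left out (311 and 372). SCTransform (Seurat 5.3.0, R 4.3.3, 3000 variable genes), 30 components, 20 neighbours and Louvain clustering at resolution 0.4 followed, with no integration. Clusters were named where at least 3 markers were at 4 times the 10th percentile of clusters and in 10% of nuclei, and no other class led the 10 top genes. The naming rule was set after the clusters were seen. Since nuclei are not replicates, each library's UMIs were added up within a cell type. A gene was read with at least 100 UMIs over both libraries. Near this minimum a gene can be read because it is high in 1 library. The script was tested on simulated data. Positions and lengths came from GENCODE vM21 (99.6% of genes matched). The members, lists and tests were chosen with earlier results of these data known. UMIs were to be printed for the 4 members of each class with the most UMIs and for the highest and lowest log2 ratio of each class. In the other cell types members whose interval left out 0 were named, and of further pathway genes the 3 highest and 3 lowest with at least 200 UMIs. Values of further members complete the lists and were chosen after they were seen.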

Additional observations from a re-analysis of the deposited data

Results flagged for a closer look

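Outside the comparisons between named cell types, 6 members passed the size rule in unnamed cluster 2, whose leading genes were Hbb-bs, Ttr, Apoe and Flt1 and in which the mitochondrial share was 8.82% in vehicle and 7.52% in OLE. What singled them out was a signal in nuclei that no comparison uses, past the level in the vehicle library. Atf4 had 32 UMIs in vehicle and 83 in OLE, a log2 ratio of 1.21 (0.61 to 1.85), and Atf6 had 115 and 82 UMIs, -0.65 (-1.08 to -0.23). Pdia6 (57 and 117 UMIs) had 0.87, Fkbp2 (52 and 89) 0.61, Hsp90b1 (180 and 304) 0.59 and Calr (180 and 296) 0.55. Hspa5, with 190 and 207 UMIs, was at -0.04 (-0.33 to 0.25) in the same nuclei, while its interval lay above 0 in the 6 largest named types. Among all genes in cluster 2, 10.4% were called higher and 4.09% lower.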

How the results depend on the processing

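The 12 summary values (medians of the members or of a class, and counts of members called higher) were recomputed under 8 alternatives planned at the start and 2 chosen after seeing the data, of which equal weight for every cluster gave values for the neuron types alone, since each glial type was 1 cluster. For the sensors and transcription factors the median crossed 0 within its counting interval, no other median changed sign, and 112 of 113 values stayed within the counting interval of the members or within 1.5 times the count. The exception was the minimum of 500 UMIs, under which 6 members in place of 13 were called higher in GABAergic-like nuclei, since fewer members were read. The median of the chaperones in glutamatergic-like nuclei ranged from 0.44 (every nucleus weighing the same) to 0.56 (no doublets left out), that of the translocon genes from 0.29 to 0.40, that of the sensors and transcription factors from -0.05 (centred on the median of all genes) to 0.03, and that of the degradation genes from 0.18 to 0.31. With every nucleus weighing the same, or after centring, 9 members were called higher in glutamatergic-like nuclei, and under neither was a degradation gene. In the glia, equal weight for every nucleus left no chaperone called higher in astrocyte-like (2 before) and microglia-like nuclei (1 before) and 1 in oligodendrocyte-like nuclei (2 before). With no doublets left out 4 were called in OPC-like (6 before), 1 in astrocyte-like (2 before) and 3 in microglia-like nuclei (1 before). At least 500 UMIs left no member to read in microglia-like, astrocyte-like and OPC-like nuclei. No paired analysis was possible because there was 1 library per group. Depth limited the glia most, where 8 to 27 of the 38 members could be read.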
